A study of Homo sapiens with 12 samples.

Results

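The 40 genes described here encode the machinery that copies DNA in S phase and the enzymes that supply its nucleotides. They were taken by symbol from the deposited table of 58735 genes. All 40 of the 40 were found, and all 40 passed the filter on low values (at least 1 FPKM in at least 3 libraries, 13194 genes). FPKM (fragments scaled per kilobase of exon and by library depth) lets levels of different genes be compared. CCNE2 passed through its MCF-10A libraries alone, since it lay below 1 FPKM in every SK-BR-3 library.

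The study measured the RNA of breast cells after diallyl trisulfide (DATS), which is a sulfur compound found in garlic. SK-BR-3 cells come from a breast cancer and carry extra copies of ERBB2, while MCF-10A cells are breast epithelium that became immortal on its own and forms no tumours. The 4 groups of 3 libraries each were SK-BR-3 cells given 20 µM DATS for 16 h, SK-BR-3 cells given the solvent DMSO at 0.07% for 16 h, MCF-10A cells given 20 µM DATS for 16 h, and MCF-10A cells given 0.07% DMSO for 16 h. The share of solvent in the DATS dishes is not given in the sources used here. Cancer and non-tumorigenic cells are each represented by 1 line, so a difference between cell lines cannot be told apart from one between cancer and normal cells. All libraries were bulk RNA from whole dishes, and fewer cells in S phase cannot be told apart from less of these RNAs per cell.

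DNA replication starts in G1, when the origin recognition complex, CDC6 and CDT1 load the MCM helicase onto origins. At the start of S phase CDC45 and the GINS complex turn the loaded MCM ring into an active helicase, primase lays down primers, and the delta and epsilon polymerases extend them while held by the PCNA clamp. Most of these genes are transcribed as cells pass from G1 into S phase, and E2F factors, released from the retinoblastoma family of pocket proteins, are their best known activators.

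The libraries held 15295046 to 18407213 reads in genes. The 6 SK-BR-3 libraries summed to 3707 to 6223 FPKM over 8 luminal markers and 843 to 1014 FPKM over 5 genes of the ERBB2 amplicon, and the 6 MCF-10A libraries to 5393 to 7635 FPKM over 9 basal markers. Leukocyte markers summed to at most 0.431 FPKM and fibroblast markers to at most 9.63 FPKM. Of 4 endothelial markers, CDH5 alone reached 1 FPKM, with 21.3 to 30.0 FPKM in SK-BR-3 DATS and 9.75 to 15.1 FPKM in SK-BR-3 DMSO libraries, while PECAM1, VWF and KDR reached at most 0.208 FPKM in any library. With treatment, luminal markers summed to 205 to 245 FPKM in MCF-10A DATS and 126 to 144 FPKM in MCF-10A DMSO libraries, and basal markers to 77.5 to 113 FPKM in SK-BR-3 DATS and 37.9 to 49.4 FPKM in SK-BR-3 DMSO libraries. The sums hide unlike markers. In SK-BR-3, KRT17 had 21.5 to 34.5 FPKM with DATS and 6.40 to 10.6 FPKM with DMSO. There KRT14, KRT6A, TP63 and VIM reached at most 0.303 FPKM. In MCF-10A every DATS library was below every DMSO library for KRT5 and KRT14, and above for LAMB3. GATA3 lay between 4.83 and 8.15 FPKM in both lines, and ESR1 reached at most 0.168 FPKM. The part of these marker shifts in the replication genes' changes was not tested. In MCF-10A, library 3 stood apart: its counts differed from those of libraries 1 and 2 with a chi-square per degree of freedom of 15.8 to 28.5, against 4.18 (DATS) and 4.02 (DMSO) between libraries 1 and 2. SK-BR-3 DMSO library 1 stood apart likewise, with 25.5 and 24.1 against libraries 2 and 3, which differed by 7.14, while the 3 SK-BR-3 DATS libraries differed by 21.7 to 25.5 from each other. The numbers 1, 2 and 3 are read here as the study's 3 independent preparations, since libraries of a line with the same number deviated together. The labels do not tie the numbers to preparations. The comparisons were therefore also fitted with the number as a block, and without both MCF-10A libraries of preparation 3.

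Part of the set fell with DATS in each line. In SK-BR-3, 9 of the 40 were lower at an adjusted p under 0.05 (limma on log2(FPKM + 1), Benjamini-Hochberg over all genes tested), against 6.87% of all genes tested. These were MCM3, MCM5, MCM6 and MCM7 of the helicase ring, its activators CDC45 and GINS2, the polymerase subunits POLD3 and POLE, and the ligase LIG1. In MCF-10A, 22 of the 40 were lower, against 2.11% of all genes tested. MCM3, MCM5, MCM6, MCM7, POLE and LIG1 were lower in both lines. No member was called higher in either line by limma, edgeR or DESeq2, and 0 had an unadjusted p under 0.05 in that direction, while 11.3% of all genes tested were higher in SK-BR-3 and 4.17% in MCF-10A.

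The size of the change was modest and ran through nearly the whole set. In SK-BR-3 the log2 change was negative for 35 and positive for 5 members, with a median of -0.27 and a range of -0.65 to 0.31, beside a median of 0.03 over all genes tested. In MCF-10A it was negative for 40 of 40, with a median of -0.51 and a range of -0.90 to -0.14, beside a median of 0.02 over all genes. All 3 DATS libraries lay below all 3 DMSO libraries for 14 members in SK-BR-3 (12.4% of all genes tested) and for 34 in MCF-10A (12.2% of all genes). The plot of changes by role shows both lines side by side.

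**Figure D1:**
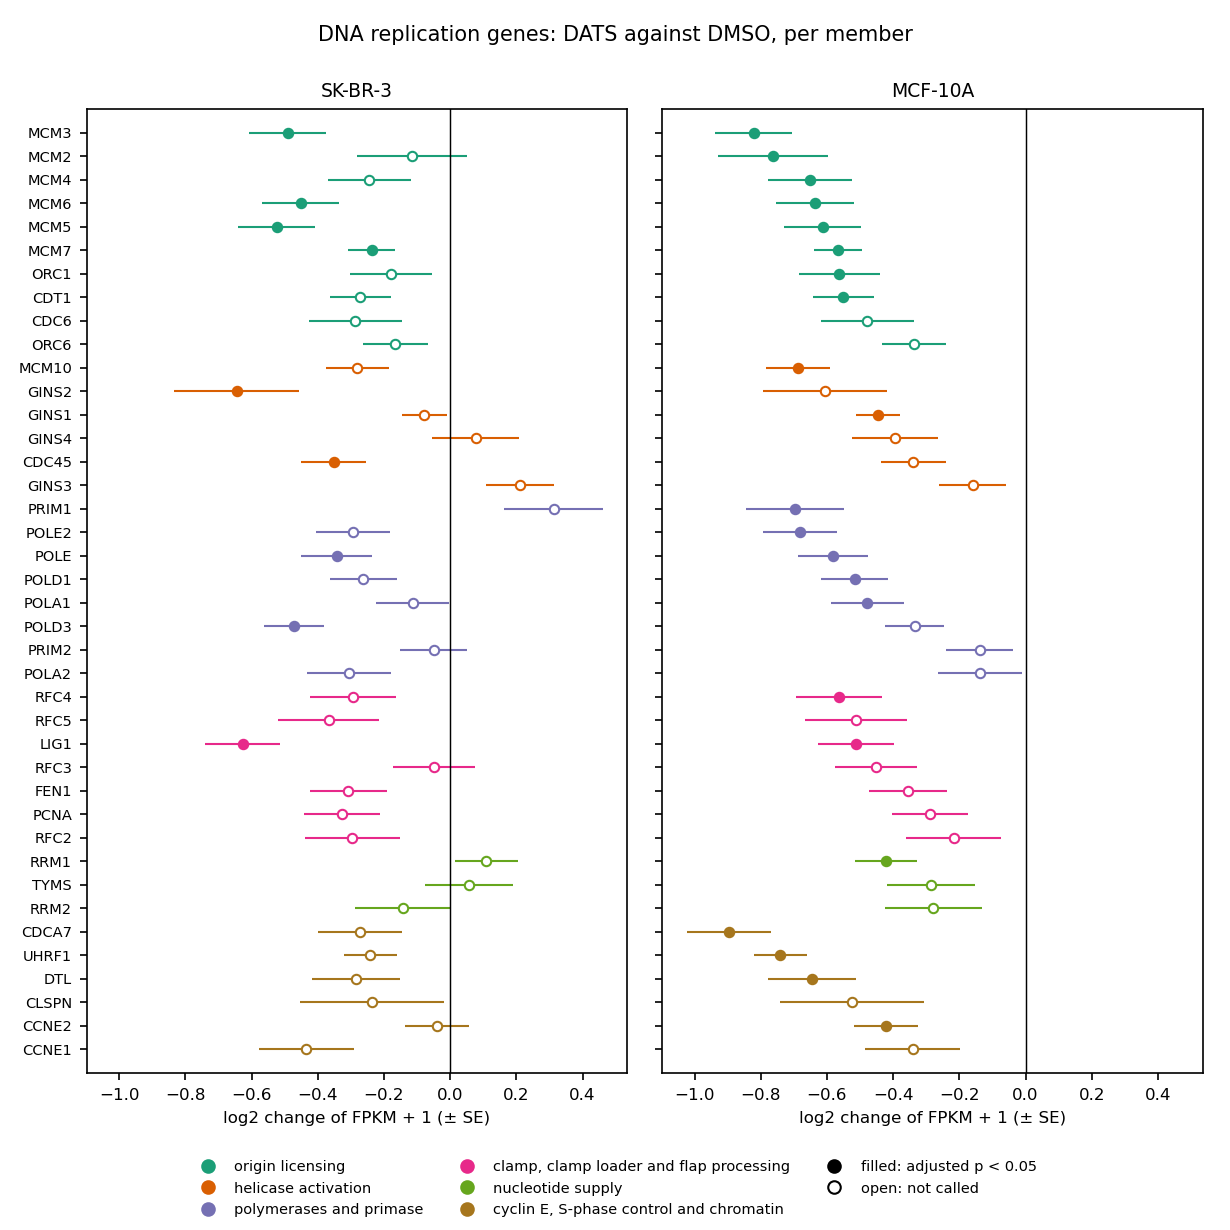
Log2 change of FPKM + 1 with DATS against DMSO (x axis, ± SE, 3 libraries a group) for each of the 40 genes (rows, coloured by role) in SK-BR-3 (left) and MCF-10A (right). Every MCF-10A point lies left of 0 and 22 are filled, while in SK-BR-3 9 are filled and GINS3, GINS4, PRIM1, RRM1 and TYMS lie right of 0.

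With the replicate number as a block, 18 members were lower and 1 (GINS3) higher in SK-BR-3, and 35 were lower in MCF-10A. The block fit called 1364 of all genes lower and 2257 higher in SK-BR-3, against 906 and 1485 without the block. In MCF-10A it called 688 genes lower, against 279. Single libraries moved the counts: in SK-BR-3 the number called was 3 without DATS library 1, 15 without DMSO library 1, 4 without DMSO library 2 and 3 without DMSO library 3. In MCF-10A it was 9 without DATS library 1, 6 without DATS library 2, 7 without DMSO library 1 and 6 without DMSO library 2. Calls over all genes moved as well. In the same order, these fits called 651, 1060, 508 and 461 genes lower in SK-BR-3, against 906 with all libraries. In MCF-10A they called 75, 28, 24 and 33 genes lower, against 279. Whichever of the 12 libraries was left out, MCM5, POLD3 and LIG1 stayed called in SK-BR-3, and MCM3, MCM7, MCM10, GINS1, UHRF1 and CDCA7 in MCF-10A. With no SK-BR-3 library in the fit, limma called 0 members in MCF-10A, with 34 at an unadjusted p under 0.05 and a lowest adjusted p of 0.0514. That fit called 0 of all genes tested, lower or higher. Over all genes, limma called 1485 higher and 906 lower in SK-BR-3, edgeR on the recovered reads 1145 and 1111, and limma after quantile normalization 1185 and 1032. In MCF-10A limma called 550 higher and 279 lower, and 634 and 615 after quantile normalization.

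The direction was alike in the 3 preparations. In preparations 1, 2 and 3 the members' median was -0.33, -0.26 and -0.20 in SK-BR-3, with 33, 35 and 30 of 40 members lower. It was -0.58, -0.55 and -0.34 in MCF-10A, with 39, 40 and 39 members lower. The change had the negative sign in all 3 preparations for 27 members in SK-BR-3 and 38 in MCF-10A, beside 21.9% and 22.0% of all genes tested. Preparation 3 had the smallest median in both lines. Ribosomal RNA, with that of mitochondria included, took 0.365%, 0.386% and 0.261% of reads in MCF-10A DATS libraries 1, 2 and 3. With DMSO it took 0.249%, 0.243% and 0.257%, so its gap was also smallest in preparation 3. In SK-BR-3 it took 0.427%, 0.557% and 0.454% with DATS, against 0.344%, 0.346% and 0.410% with DMSO. The part of ribosomal RNA content in the members' change was not tested. Without both MCF-10A libraries of preparation 3, 11 members were called in SK-BR-3 and 26 in MCF-10A, and the MCF-10A median was -0.56. The calls of GINS2 in SK-BR-3 (adjusted p = 0.059) and RFC4 in MCF-10A (adjusted p = 0.071) were lost there in limma. By role, the SK-BR-3 counts of lower genes were then 1 of 6 for helicase activation, 3 of 7 for the clamp class and 1 of 6 for S-phase control, and the MCF-10A counts 3 of 6 for helicase activation and 3 of 7 for the clamp class.

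**Figure D2:**
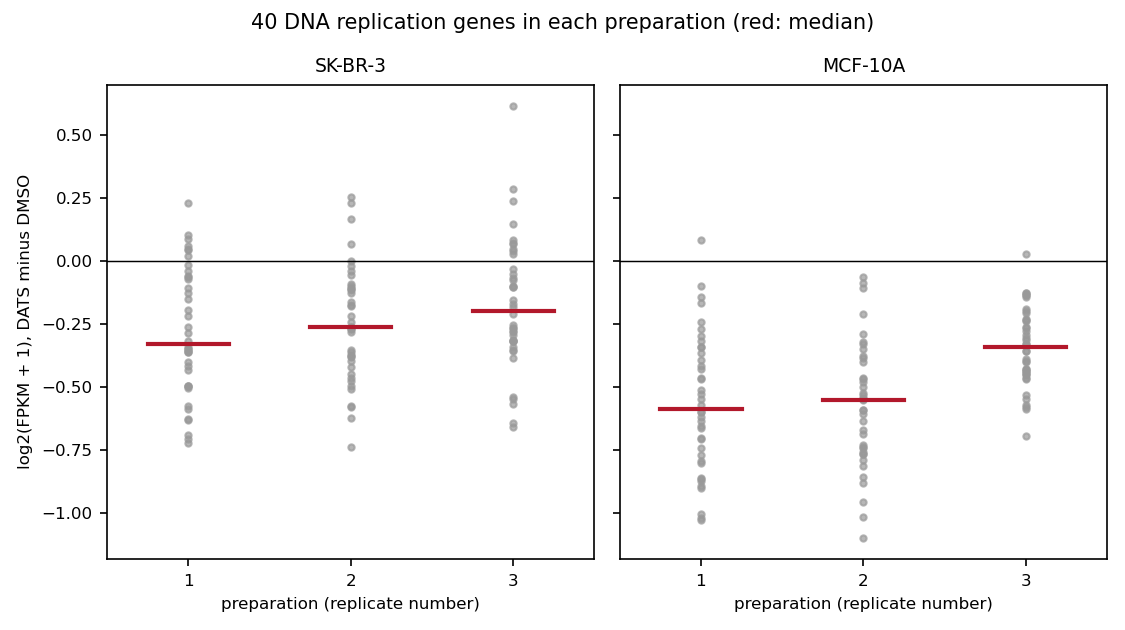
Difference in log2(FPKM + 1) between the DATS and the DMSO library of the same number (y axis) for the 40 genes (grey points) in preparations 1, 2 and 3 (x axis) of SK-BR-3 (left) and MCF-10A (right). The red median bars lie at -0.33, -0.26 and -0.20 in SK-BR-3 and at -0.58, -0.55 and -0.34 in MCF-10A.

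The promoters of most of these genes share a sequence feature. E2F factors are the best known activators of such genes, so the choice of genes made E2F matches likely beforehand. RefSeq promoters on GRCh38.p14, from 250 bases before to 50 bases after the gene's start, were given for 35 of the 40 members, all but MCM4, MCM5, GINS4, POLD3 and CCNE2. Both strands were searched for an E2F site (TTTGGCGC or TTTCGCGC) and for a shorter E2F core, which overlaps the site and was read as TTGGCGC, also as TTCGCGC, further as TTCCCGC, and last as TTGGCGG. The core was present in 29 of 35 member promoters (82.9%), beside 23.1% of the 9200 promoters of tested genes and 3824 of all 27305 promoters. The longer site was present in 11 of 35 (31.4%), beside 2.12% of tested genes and 1.18% of all promoters. The 6 promoters without a core were those of POLD1, PRIM2, RRM2, CCNE1, FEN1 and ORC6. The CCAAT box, read by NF-Y, was in 57.1% of member promoters, beside 36.7% of tested genes. The cell cycle homology region of G2/M genes, read as TTTGAA and also as TTTAAA, was in 8.57%, beside 15.1%. Of the promoters of 23 G2/M genes, the core was in 43.5%, CCAAT in 73.9% and the homology region in 78.3%. Median GC content was 65.7% in both members and tested genes. A match is a run of letters, and binding was not measured here.

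Printed below are the promoters of the members with the largest change in MCF-10A (CDCA7) and in SK-BR-3 (GINS2), of MCM3, which was lower in both lines and holds a full E2F site beside 2 further cores, and of PRIM1, whose response differed most between the lines. Each runs 5′ to 3′ on the gene's own strand, with E2F matches on either strand in capitals. In PRIM1 a TTCCCGC and a reverse-strand TTGGCGG overlap in 1 run. CDCA7 lies on the plus strand at chr2:173354622-173354921, GINS2 on the minus strand at chr16:85688905-85689204, MCM3 on the minus strand at chr6:52284693-52284992, and PRIM1 on the minus strand at chr12:56752274-56752573.
CDCA7: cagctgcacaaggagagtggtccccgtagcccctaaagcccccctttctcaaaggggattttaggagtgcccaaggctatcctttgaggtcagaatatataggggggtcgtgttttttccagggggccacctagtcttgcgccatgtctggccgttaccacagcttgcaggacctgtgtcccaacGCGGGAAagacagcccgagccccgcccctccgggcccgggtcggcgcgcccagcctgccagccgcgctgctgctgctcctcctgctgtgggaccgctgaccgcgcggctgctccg
GINS2: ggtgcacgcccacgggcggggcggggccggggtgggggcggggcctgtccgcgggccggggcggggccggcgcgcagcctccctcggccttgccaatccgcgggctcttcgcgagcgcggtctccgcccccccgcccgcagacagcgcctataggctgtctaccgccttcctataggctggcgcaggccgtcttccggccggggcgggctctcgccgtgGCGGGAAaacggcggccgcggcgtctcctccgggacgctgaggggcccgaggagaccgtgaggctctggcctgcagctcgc
MCM3: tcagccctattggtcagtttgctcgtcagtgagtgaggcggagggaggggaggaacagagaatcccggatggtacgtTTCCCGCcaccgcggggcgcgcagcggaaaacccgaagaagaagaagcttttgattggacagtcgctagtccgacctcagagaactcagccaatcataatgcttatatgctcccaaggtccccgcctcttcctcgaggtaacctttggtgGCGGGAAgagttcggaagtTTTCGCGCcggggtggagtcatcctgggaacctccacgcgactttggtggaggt
PRIM1: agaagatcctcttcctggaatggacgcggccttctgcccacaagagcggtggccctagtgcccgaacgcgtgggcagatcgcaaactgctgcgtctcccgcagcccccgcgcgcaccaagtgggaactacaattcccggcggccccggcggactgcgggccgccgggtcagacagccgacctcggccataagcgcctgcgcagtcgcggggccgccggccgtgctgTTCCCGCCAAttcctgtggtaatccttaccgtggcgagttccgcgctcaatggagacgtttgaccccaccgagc

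Of the origin licensing genes, the largest class, 4 of 10 were lower in SK-BR-3 with a class median of -0.26, and 8 of 10 in MCF-10A with a median of -0.59. As single libraries were left out, these counts ranged from 1 to 5 in SK-BR-3 and from 2 to 10 in MCF-10A. The remaining pair in MCF-10A, the loader CDC6 and the origin recognition subunit ORC6, passed with the replicate block (adjusted p = 0.0229 and 0.0226 in limma). MCM3, a subunit of the MCM ring (chromosome 6, 52264009 to 52284881, GRCh38), had 18.9, 20.6 and 24.0 FPKM in SK-BR-3 DATS libraries, against 29.6, 29.5 and 31.0 FPKM in SK-BR-3 DMSO libraries. The groups did not overlap, and MCM3 fell by 0.49 ± 0.12 on the log2 scale (limma adjusted p = 0.015), a call lost without DATS library 1 or DMSO library 3. Its MCF-10A DATS libraries had 27.1, 26.5 and 33.0 FPKM, against 56.2, 54.6 and 44.6 FPKM with DMSO. Again no DATS library reached a DMSO library, and the change was -0.82 ± 0.12 (limma adjusted p = 0.00564).

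MCM5, another ring subunit, was lower in both lines. It had 8.39, 7.31 and 9.63 FPKM in SK-BR-3 DATS libraries, against 13.0, 12.8 and 11.8 FPKM in DMSO libraries, a change of -0.52 ± 0.12 (limma adjusted p = 0.012). With DATS, MCF-10A libraries had 10.9, 12.8 and 13.9 FPKM, against 21.1, 20.9 and 17.0 FPKM with DMSO, a change of -0.61 ± 0.12 (limma adjusted p = 0.0148). Neither line's groups overlapped. Its response difference, SK-BR-3 minus MCF-10A, was 0.09 ± 0.16 and was not called.

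MCM2, which carries histones at the fork besides its place in the ring, moved in MCF-10A. It had 5.76, 6.45 and 8.17 FPKM in SK-BR-3 DATS libraries, against 8.53, 6.11 and 7.65 FPKM in DMSO libraries, and these overlapped (-0.11 ± 0.17). MCF-10A cells given DATS had 11.0, 11.1 and 11.98 FPKM, against 23.4, 22.6 and 15.1 FPKM with DMSO, where library 3 was low. The change was -0.76 ± 0.17 (limma adjusted p = 0.0253), a call that any 1 of 5 MCF-10A libraries ended when left out, all but DMSO library 3. The difference between the lines' responses was 0.65 ± 0.23 and did not pass (limma adjusted p = 0.145). MCM6 and MCM7 were lower in both lines, by -0.45 and -0.24 in SK-BR-3 and -0.64 and -0.57 in MCF-10A. MCM7 shares 392 exonic bases with AP4M1 on the other strand, so its values are uncertain if the counting ignored strand. MCM4, the origin recognition subunit ORC1 and the loading factor CDT1 were lower in MCF-10A, by -0.65, -0.56 and -0.55. In SK-BR-3 CDT1 had -0.27 and passed with the replicate block (adjusted p = 0.0172). The MCM7 call in MCF-10A held whichever library was left out.

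CDC6, which brings MCM to origins, was higher in every SK-BR-3 library than in any MCF-10A library. It had 37.2, 45.8 and 55.2 FPKM in SK-BR-3 DATS libraries, against 49.9, 59.8 and 57.8 FPKM in SK-BR-3 DMSO libraries, and the groups overlapped (-0.29 ± 0.14). In MCF-10A it had 8.40, 8.38 and 11.3 FPKM with DATS, against 13.2, 13.3 and 13.4 FPKM with DMSO, where all 3 DATS libraries were lower (-0.48 ± 0.14, limma adjusted p = 0.0665).

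**Figure D3:**
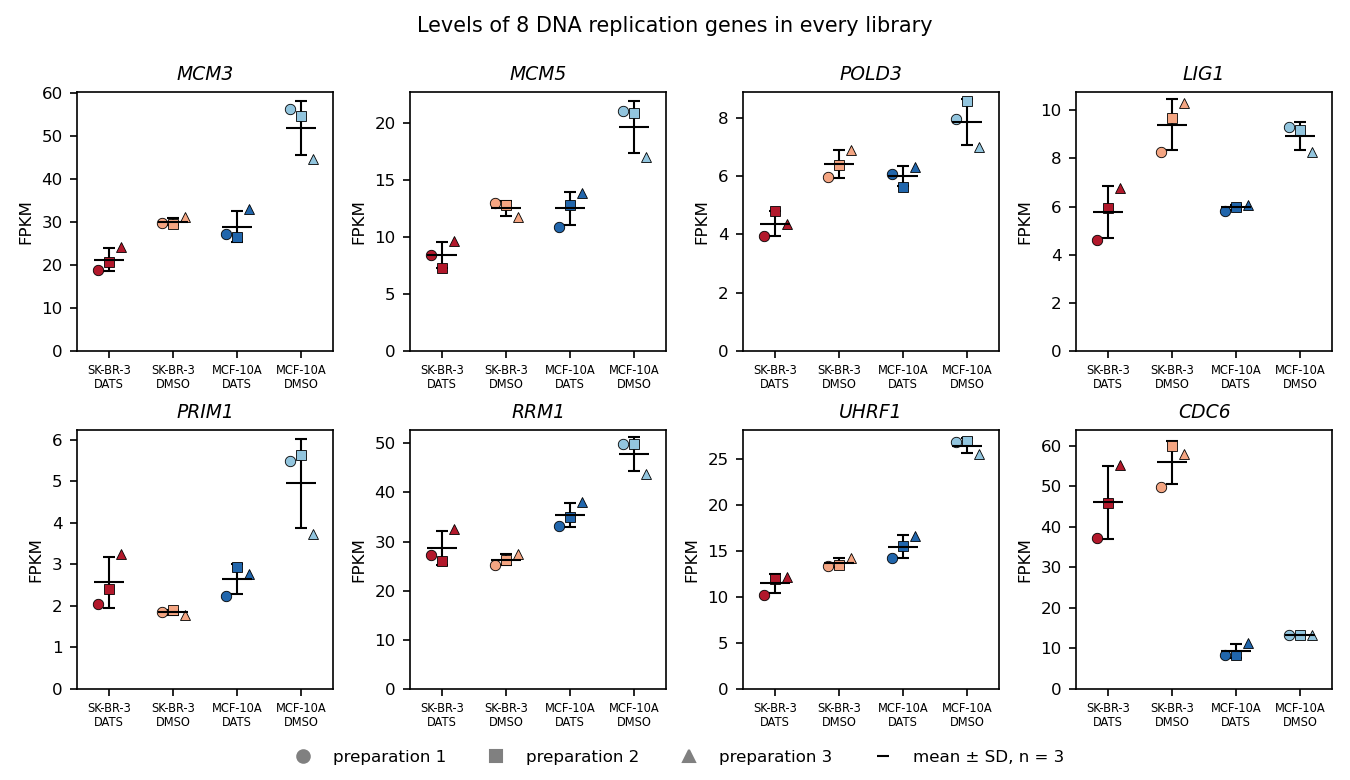
FPKM (y axis, from 0) of 8 of the genes in each library, grouped as SK-BR-3 DATS, SK-BR-3 DMSO, MCF-10A DATS and MCF-10A DMSO (x axis). Symbols give the replicate number and black bars the mean ± SD of 3 libraries. MCM3, MCM5, POLD3 and LIG1 lie lower with DATS in both lines, PRIM1, RRM1 and UHRF1 differ in their response between lines, and CDC6 is higher in all SK-BR-3 libraries than in any MCF-10A library.

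Among the helicase activation genes 2 of 6 were lower in each line, and they were different genes. CDC45 and GINS2 were called in SK-BR-3, and MCM10 and GINS1 in MCF-10A. No difference between the lines passed for any of these 4 in limma (response differences of -0.01, -0.04, 0.41 and 0.37 for CDC45, GINS2, MCM10 and GINS1), but that of GINS1 did with the replicate block (adjusted p = 0.0389). The SK-BR-3 count ranged from 0 to 3 and the MCF-10A count from 2 to 3 as single libraries were left out. GINS2, a subunit of the GINS complex, had 2.12, 3.75 and 4.09 FPKM in SK-BR-3 DATS libraries, against 4.08, 6.08 and 7.03 FPKM in DMSO libraries. Library 1 was lowest in both groups, and DATS library 3 lay level with DMSO library 1. Its change was -0.65 ± 0.19 (limma adjusted p = 0.0357), with -0.61 ± 0.19 in MCF-10A (limma adjusted p = 0.078, and 0.00687 with the replicate block). Its MCF-10A DATS libraries had 8.05, 7.33 and 8.09 FPKM, against 13.3, 11.5 and 12.5 FPKM with DMSO, with no overlap. The SK-BR-3 call was lost without any 1 of 5 libraries, SK-BR-3 DATS 1, DMSO 2 and DMSO 3 and MCF-10A DATS 1 and DATS 2.

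CDC45, the partner of MCM and GINS in the active helicase, had 10.2, 11.0 and 12.7 FPKM in SK-BR-3 DATS libraries, against 13.4, 14.6 and 16.0 FPKM in DMSO libraries. The groups did not overlap and the change was -0.35 ± 0.10 (limma adjusted p = 0.0306). With DATS, MCF-10A libraries had 12.8, 11.6 and 13.8 FPKM, against 17.5, 16.3 and 15.3 FPKM with DMSO (-0.34 ± 0.10, limma adjusted p = 0.0629, and 0.0249 with the block). MCM10, which helps to activate the helicase, had 3.37, 3.42 and 4.18 FPKM in SK-BR-3 DATS libraries, against 4.90, 4.67 and 4.35 FPKM in DMSO libraries. All 3 DATS libraries were lower, but the change of -0.28 ± 0.10 did not pass (limma adjusted p = 0.0638). In MCF-10A MCM10 had 4.403, 4.59 and 5.41 FPKM with DATS, against 8.03, 9.11 and 7.86 FPKM with DMSO, and it fell by 0.69 ± 0.10 on the log2 scale (limma adjusted p = 0.00516).

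GINS3 and GINS4 did not share the sign of the other helicase activators in SK-BR-3. GINS3 had 4.26, 4.57 and 5.29 FPKM in SK-BR-3 DATS libraries, against 3.48, 3.67 and 4.68 FPKM in DMSO libraries. Each DATS library was above the DMSO library of its own number, though the groups overlapped. The change was 0.21 ± 0.10 (limma adjusted p = 0.173, and 0.0404 with the replicate block). In MCF-10A GINS3 had 4.35, 4.26 and 4.499 FPKM with DATS, against 4.90, 4.66 and 5.47 FPKM with DMSO, with no overlap (-0.16 ± 0.10, limma adjusted p = 0.377). GINS4 had 1.69, 1.15 and 1.69 FPKM in SK-BR-3 DATS libraries, against 1.80, 1.15 and 1.21 FPKM in DMSO libraries, which overlapped. MCF-10A cells given DATS had 3.06, 3.65 and 2.80 FPKM, against 4.61, 4.81 and 4.01 FPKM with DMSO, with no overlap (-0.40 ± 0.13, limma adjusted p = 0.0931, and 0.0255 with the block). With the block, 5 of 6 helicase activators were lower in MCF-10A.

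Of the polymerase and primase genes 2 of 8 were lower in SK-BR-3 and 5 of 8 in MCF-10A, with ranges of 1 to 2 and 0 to 6 as single libraries were left out. PRIM1, the catalytic primase subunit that makes RNA primers, had the largest difference in response of the 40. It had 2.04, 2.41 and 3.25 FPKM in SK-BR-3 DATS libraries, against 1.86, 1.90 and 1.77 FPKM in DMSO libraries. In MCF-10A it had 2.24, 2.93 and 2.76 FPKM with DATS, against 5.49, 5.63 and 3.72 FPKM with DMSO. Its DATS libraries thus lay above the DMSO libraries in SK-BR-3 and below them in MCF-10A, and averaged 2.57 ± 0.619 FPKM in SK-BR-3 and 2.64 ± 0.361 FPKM in MCF-10A (SD, n = 3 each). The change was 0.31 ± 0.15 in SK-BR-3 (limma adjusted p = 0.168) and -0.70 ± 0.15 in MCF-10A (limma adjusted p = 0.0236), where the call was lost without any 1 MCF-10A library but DMSO library 3. PRIM1 shares 33 exonic bases with NACA on its own strand and 132 with HSD17B6 on the other strand, so some reads are uncertain. PRIM2, the regulatory primase subunit, had -0.05 ± 0.10 in SK-BR-3 and -0.14 ± 0.10 in MCF-10A and passed in neither line.

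POLD3, an accessory subunit of polymerase delta, had 3.94, 4.80 and 4.34 FPKM in SK-BR-3 DATS libraries, against 5.96, 6.39 and 6.91 FPKM in DMSO libraries. The groups did not overlap, and the change of -0.47 ± 0.09 (limma adjusted p = 0.00645) held whichever library was left out. In MCF-10A POLD3 had 6.07, 5.63 and 6.30 FPKM with DATS, against 7.95, 8.58 and 7.01 FPKM with DMSO (-0.34 ± 0.09, limma adjusted p = 0.0509, and 0.0422 with the block). POLD3 shares 123 exonic bases on its own strand with AP001372.2, which reached at most 1.19 FPKM, so some reads are uncertain. POLE, the catalytic subunit of the leading-strand polymerase epsilon, had 4.53, 4.47 and 4.89 FPKM in SK-BR-3 DATS libraries, against 6.82, 5.59 and 6.02 FPKM in DMSO libraries. It was just past the threshold (-0.34 ± 0.11, limma adjusted p = 0.047), and any 1 of 10 libraries ended the call when left out, all but MCF-10A DMSO libraries 2 and 3. In MCF-10A POLE had 5.28, 5.16 and 5.002 FPKM with DATS, against 8.87, 9.27 and 6.68 FPKM with DMSO (-0.58 ± 0.11, limma adjusted p = 0.0136).

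POLE2, the second subunit of polymerase epsilon, had 2.28, 3.25 and 3.37 FPKM in SK-BR-3 DATS libraries, against 3.92, 3.59 and 3.97 FPKM in DMSO libraries, with no overlap (-0.29 ± 0.11, limma adjusted p = 0.0891). Its MCF-10A DATS libraries had 2.49, 2.63 and 3.08 FPKM, against 4.68, 5.38 and 4.89 FPKM with DMSO, and it fell by 0.68 ± 0.11 on the log2 scale (limma adjusted p = 0.00929). The catalytic subunits POLD1 of polymerase delta and POLA1 of polymerase alpha were lower in MCF-10A too, by -0.52 and -0.48, and had -0.26 and -0.11 in SK-BR-3, where POLD1 passed with the block (adjusted p = 0.0211). POLA2, the accessory subunit of polymerase alpha, lay between 0.963 and 2.80 FPKM and passed in neither line (-0.31 in SK-BR-3 and -0.14 in MCF-10A).

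LIG1, which seals Okazaki fragments, was the member of the clamp and flap class that was lower in both lines. It had 4.62, 5.94 and 6.77 FPKM in SK-BR-3 DATS libraries, against 8.25, 9.68 and 10.3 FPKM in DMSO libraries. With DATS, MCF-10A libraries had 5.83, 6.001 and 6.06 FPKM, against 9.33, 9.20 and 8.28 FPKM with DMSO. Neither line's groups overlapped, and the changes were -0.63 ± 0.11 (limma adjusted p = 0.00494) in SK-BR-3 and -0.51 ± 0.11 (limma adjusted p = 0.0275) in MCF-10A. LIG1 was the 1 call among 7 genes in SK-BR-3 and, with the clamp loader subunit RFC4, was 1 of 2 in MCF-10A, and with the replicate block 6 of 7 were lower in each line. As single libraries were left out, the count ranged from 1 to 6 in SK-BR-3 and from 0 to 3 in MCF-10A.

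RFC4 had 12.8, 17.8 and 17.9 FPKM in SK-BR-3 DATS libraries, against 16.6, 21.5 and 21.9 FPKM in DMSO libraries. Library 1 was low in both groups, which overlapped (-0.29 ± 0.13, limma adjusted p = 0.14, and 0.0133 with the block). In MCF-10A RFC4 had 11.4, 10.1 and 10.5 FPKM with DATS, against 16.1, 16.9 and 15.8 FPKM with DMSO (-0.56 ± 0.13, limma adjusted p = 0.03). RFC5, another subunit of the loader, had 3.21, 3.60 and 5.28 FPKM in SK-BR-3 DATS libraries, against 4.39, 5.86 and 6.06 FPKM in DMSO libraries. The groups overlapped, though each DATS library was below the DMSO library of its own number (-0.37 ± 0.15, limma adjusted p = 0.12, and 0.0173 with the block). MCF-10A cells given DATS had 12.6, 11.7 and 10.8 FPKM, against 18.9, 17.5 and 15.0 FPKM with DMSO, with no overlap (-0.51 ± 0.15, limma adjusted p = 0.0684, and 0.0117 with the block). RFC5 shares 186 exonic bases with WSB2 on the other strand.

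RFC3 had 18.0, 21.3 and 24.1 FPKM in SK-BR-3 DATS libraries, against 18.2, 22.8 and 24.7 FPKM in DMSO libraries, so that each pair of the same number was nearly level (-0.05 ± 0.12). In MCF-10A it had 12.4, 10.1 and 11.6 FPKM with DATS, against 15.9, 15.3 and 16.4 FPKM with DMSO, with no overlap (-0.45 ± 0.12, limma adjusted p = 0.0548, and 0.0083 with the block). PCNA, the sliding clamp, was the most abundant of the 40 in all 4 groups, with means of 151 and 190 FPKM in SK-BR-3 DATS and DMSO and 132 and 160 FPKM in MCF-10A DATS and DMSO. Its changes of -0.33 ± 0.11 and -0.29 ± 0.11 did not pass in limma but did with the block (adjusted p = 0.0207 and 0.0464), as did those of the flap nuclease FEN1 (-0.31 and -0.35). FEN1 shares 49 exonic bases with FADS2 on its own strand and 166 with TMEM258 on the other strand. RFC2 had -0.30 in SK-BR-3, where it passed with the block (adjusted p = 0.0397), and -0.22 in MCF-10A.

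Ribonucleotide reductase and thymidylate synthase, which make deoxynucleotides, had the class medians nearest to 0 (0.06 in SK-BR-3 and -0.28 in MCF-10A). In SK-BR-3, 0 of these 3 passed in limma, edgeR or DESeq2, and 0 had an unadjusted p under 0.05. In MCF-10A, 1 of 3 did, 3 of 3 with the replicate block, and 0 to 1 as single libraries were left out. RRM1, the large subunit of the reductase, had 27.3, 26.0 and 32.5 FPKM in SK-BR-3 DATS libraries, against 25.3, 26.3 and 27.4 FPKM in DMSO libraries. These overlapped (0.11 ± 0.09, limma adjusted p = 0.464). In MCF-10A RRM1 had 33.2, 34.9 and 38.0 FPKM with DATS, against 49.8, 49.8 and 43.7 FPKM with DMSO, with no overlap (-0.42 ± 0.09, limma adjusted p = 0.0274). RRM2, the small subunit, had 21.2, 23.7 and 24.5 FPKM in SK-BR-3 DATS libraries, against 20.4, 26.9 and 30.8 FPKM in DMSO libraries, which overlapped. Its MCF-10A DATS libraries had 27.6, 28.1 and 33.9 FPKM, against 32.9, 34.5 and 42.1 FPKM with DMSO, where DATS library 3 overlapped the DMSO group (-0.28 ± 0.15, limma adjusted p = 0.275).

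TYMS, thymidylate synthase, had 8.66, 10.5 and 12.7 FPKM in SK-BR-3 DATS libraries, against 9.14, 9.24 and 12.04 FPKM in DMSO libraries, which overlapped. With DATS, MCF-10A libraries had 15.5, 12.7 and 13.3 FPKM, against 17.4, 17.1 and 16.5 FPKM with DMSO, with no overlap (-0.28 ± 0.13, limma adjusted p = 0.22). TYMS shares 967 exonic bases with ENOSF1 and 183 with TYMSOS, both on the other strand, so its values are uncertain if the counting ignored strand.

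The remaining class holds S-phase regulators and chromatin genes, of which 0 of 6 passed in SK-BR-3 by limma (2 at an unadjusted p under 0.05, 2 by edgeR, 2 by DESeq2 and 2 with the block) and 4 of 6 in MCF-10A. The ranges over single libraries left out were 0 to 1 and 2 to 4. CDCA7, which recruits the chromatin remodeller HELLS, had 3.07, 2.58 and 3.23 FPKM in SK-BR-3 DATS libraries, against 4.74, 3.16 and 3.53 FPKM in DMSO libraries. The groups overlapped (-0.27 ± 0.13, limma adjusted p = 0.163). In MCF-10A CDCA7 had 10.7, 9.06 and 10.0 FPKM with DATS, against 20.9, 20.5 and 16.9 FPKM with DMSO. It fell by 0.90 ± 0.13 on the log2 scale (limma adjusted p = 0.0057), the largest fall of the 40 in either line.

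UHRF1, which guides maintenance DNA methylation behind the fork, had 10.3, 11.99 and 12.2 FPKM in SK-BR-3 DATS libraries, against 13.4, 13.5 and 14.3 FPKM in DMSO libraries. The groups did not overlap, but the change missed the threshold (-0.24 ± 0.08, limma adjusted p = 0.0613, and 0.0439 with the block). MCF-10A cells given DATS had 14.3, 15.5 and 16.7 FPKM, against 26.9, 27.1 and 25.6 FPKM with DMSO (-0.74 ± 0.08, limma adjusted p = 0.00285). CCNE1, cyclin E1, which drives entry into S phase with CDK2, had 12.2, 12.7 and 11.9 FPKM in SK-BR-3 DATS libraries, against 16.5, 15.4 and 19.2 FPKM in DMSO libraries. Here too the groups did not overlap (-0.43 ± 0.14, limma adjusted p = 0.0582, and 0.00914 with the block). In MCF-10A CCNE1 had 7.61, 6.90 and 9.58 FPKM with DATS, against 9.36, 8.91 and 13.2 FPKM with DMSO, which overlapped (-0.34 ± 0.14, limma adjusted p = 0.179, and 0.0325 with the block).

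DTL, which marks CDT1 for destruction in S phase, had 6.99, 7.20 and 9.56 FPKM in SK-BR-3 DATS libraries, against 9.25, 9.97 and 10.1 FPKM in DMSO libraries, which overlapped (-0.29 ± 0.13). In MCF-10A it had 10.9, 11.5 and 15.3 FPKM with DATS, against 19.6, 22.0 and 18.6 FPKM with DMSO (-0.65 ± 0.13, limma adjusted p = 0.0212). CCNE2, cyclin E2, was lower in MCF-10A, with 1.13, 1.29 and 1.502 FPKM with DATS, against 1.79, 2.29 and 2.20 FPKM with DMSO, with no overlap (-0.42 ± 0.10). In SK-BR-3 it averaged 0.435 and 0.473 FPKM with DATS and DMSO. CCNE2 shares 1629 exonic bases with INTS8 on the other strand. The fork protein CLSPN had -0.24 in SK-BR-3 and -0.52 in MCF-10A and passed in neither.

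A test of the difference itself asked which members responded otherwise in the 2 lines. PRIM1 (1.01 ± 0.21, limma adjusted p = 0.0278), RRM1 (0.53 ± 0.13, limma adjusted p = 0.0488) and UHRF1 (0.50 ± 0.11, limma adjusted p = 0.0369) had a response in SK-BR-3 that was higher than that in MCF-10A, which makes 3 of 40, against 2.48% of all genes tested. The difference was positive for 32 of 40 members, with a median of 0.28 beside 0.005 over all genes. No member's difference was called negative by limma, edgeR or DESeq2, and 0 had an unadjusted p under 0.05 in that direction. By edgeR 1 member was called and by DESeq2 5. With the replicate block 7 were called, the 3 above with GINS1, GINS3, RFC3 and CDCA7, beside 698 positive differences over all genes tested. Without both MCF-10A libraries of preparation 3 there were 6, the 3 above with MCM2, MCM3 and POLA1. No call held whichever library was left out: 0 members were called without MCF-10A DATS library 1 or 2, MCF-10A DMSO library 1 or 2, SK-BR-3 DATS library 3, or SK-BR-3 DMSO library 2 or 3, and 7 without MCF-10A DMSO library 3. For CDC45, GINS2, PCNA, RFC2, POLA2, POLD3, CCNE1 and LIG1 the difference had a negative sign and lay between -0.17 and -0.01.

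Solvent-treated cells of the lines differed in these genes as they did in most. With DMSO, 25 members were lower in SK-BR-3 than in MCF-10A and 7 higher, against 35.5% and 36.6% of all genes tested. CCNE2, among the 25, passed the filter through its MCF-10A libraries alone, so its place among them is not an independent observation. The median difference was -0.40 beside 0.01 over all genes. All 3 nucleotide supply members, 6 of 10 licensing genes and 6 of 8 polymerase and primase genes were lower in SK-BR-3. The 7 that were higher were CDC6, MCM7, GINS1, POLA2, RFC2, RFC3 and CCNE1. CDC6 averaged 55.9 ± 5.24 FPKM in SK-BR-3 and 13.3 ± 0.0763 FPKM in MCF-10A (SD, n = 3 each), a log2 difference of 1.99 ± 0.14 (limma adjusted p = 1.2e-07). CDCA7 went furthest the other way, with 3.81 ± 0.824 FPKM in SK-BR-3 and 19.4 ± 2.24 FPKM in MCF-10A (-2.09 ± 0.13, limma adjusted p = 2.92e-08). RFC5 (-1.50), CLSPN (-1.40), MCM2 (-1.33) and GINS4 (-1.21) followed. Subunits of 1 complex thus differed in opposite ways between lines: of the clamp loader, RFC2 (0.87) and RFC3 (0.43) were higher in SK-BR-3 and RFC5 lower. Of GINS, GINS1 was higher (0.29) and GINS2, GINS3 and GINS4 were lower (-1.02, -0.29 and -1.21). The GINS3 call (limma adjusted p = 0.0237) was lost without any 1 of 3 libraries, MCF-10A DMSO 3 and SK-BR-3 DMSO 1 and 2. It was also lost with only the 2 groups compared, after quantile normalization, and without both MCF-10A libraries of preparation 3.

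**Figure D4:**
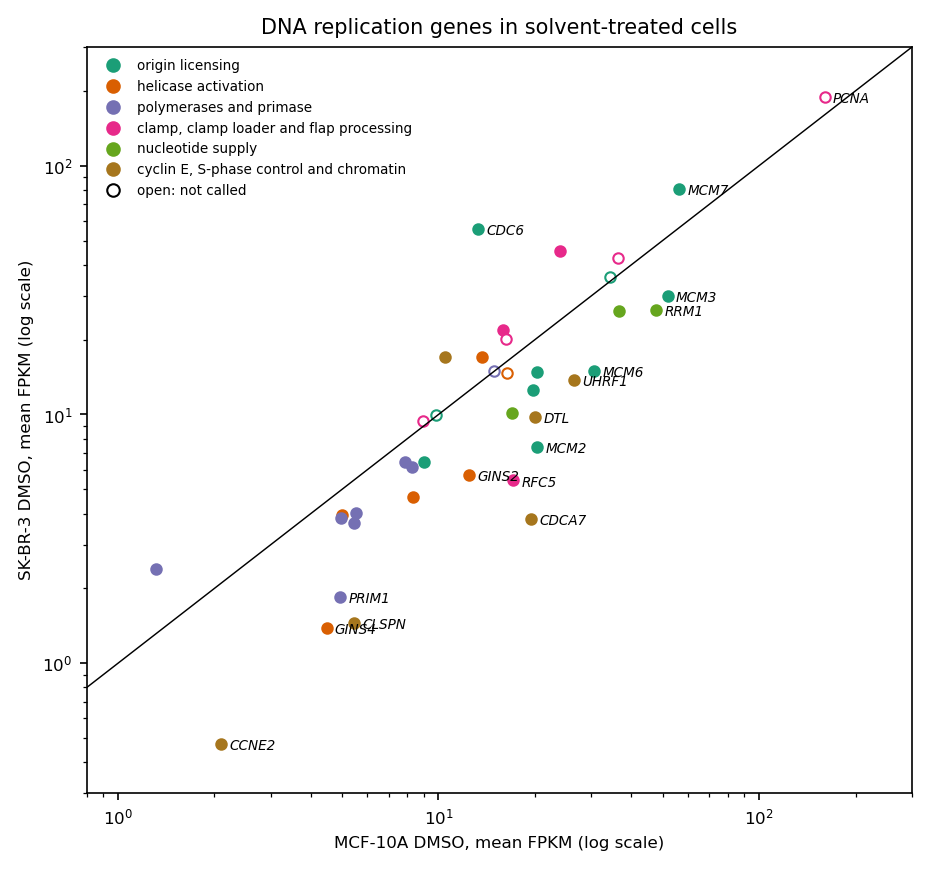
Mean FPKM of the 40 genes in SK-BR-3 DMSO (y axis) and MCF-10A DMSO (x axis), both on log scales, 3 libraries a group, with a line of equal level and open points for members whose difference was not called. CDC6 lies furthest above the line and CDCA7 furthest below it, and PCNA is the most abundant in both lines.

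Of 34 further replication genes, 4 were lower and 1 higher in SK-BR-3 (median -0.09), and 12 lower in MCF-10A (median -0.29), beside 6.87% lower and 11.3% higher over all genes in SK-BR-3 and 2.11% lower in MCF-10A. RECQL4, a helicase of replication initiation, fell by 0.62 in SK-BR-3 and 0.54 in MCF-10A on the log2 scale, and CHTF18, of an alternative clamp loader, by 0.59 and 0.58. CDC25A, a phosphatase that activates CDK2, was lower in both lines (-0.48 and -0.42), and POLE3 of polymerase epsilon in SK-BR-3 (-0.32). DBF4, the activator of the origin-firing kinase, rose in SK-BR-3 (0.38) and its response difference was called (0.52 ± 0.12, limma adjusted p = 0.0416), as were those of ORC3 (0.40, limma adjusted p = 0.0498) and MCMBP (0.39). Of these response differences edgeR called 0, DESeq2 called 7 in the list and the replicate block 6, and the count ranged from 0 to 4 as single libraries were left out. Without SK-BR-3 DATS library 3, 0 genes of the list were called higher in SK-BR-3 by limma, so that the rise of DBF4 was lost. Of 28 further nucleotide supply genes, 3 were lower and 3 higher in SK-BR-3 (median -0.06), shares near those over all genes, and 7 lower in MCF-10A (median -0.20). DUT, which clears dUTP, fell in both lines (-0.45 in SK-BR-3 and -0.55 in MCF-10A), as did the purine enzyme PFAS (-0.51 and -0.48). The pyrimidine enzyme DHODH fell in SK-BR-3 (-0.49). The purine enzyme ATIC (0.34), the nucleotide hydrolase SAMHD1 (0.31) and the deoxycytidine kinase DCK (0.30) rose in SK-BR-3 by limma, while edgeR called 0 genes of the list higher. With the block the nucleotide list had 5 lower and 3 higher in SK-BR-3, and as single libraries were left out 2 to 8 lower and 0 to 3 higher. The counts in MCF-10A ranged from 1 to 15 for the replication list and from 0 to 9 for the nucleotide list as single libraries were left out.

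E2F1 fell in both lines and E2F2 in MCF-10A. E2F1 averaged 14.9 ± 0.931 FPKM with DATS and 26.0 ± 2.16 FPKM with DMSO in SK-BR-3 (-0.77 ± 0.11, limma adjusted p = 0.00185), and 7.35 ± 1.42 FPKM with DATS and 13.7 ± 1.03 FPKM with DMSO in MCF-10A (-0.82 ± 0.11, limma adjusted p = 0.00508; SD, n = 3 each). E2F2 averaged 2.98 ± 0.479 FPKM with DATS and 4.36 ± 0.686 FPKM with DMSO in SK-BR-3 (-0.43 ± 0.15, limma adjusted p = 0.0679), and 2.30 ± 0.0362 FPKM with DATS and 6.13 ± 1.45 FPKM with DMSO in MCF-10A (-1.09 ± 0.15, limma adjusted p = 0.00457). Of 13 E2F and pocket protein genes, 1 was called in SK-BR-3, a share near the 6.87% over all genes (2 lower and 1 higher with the block), and 3 in MCF-10A (E2F1, E2F2 and, by -0.31, TFDP1), with medians of -0.03 and -0.21.

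The G2/M genes, transcribed later in the cycle, took the other direction in SK-BR-3. Of 30, 19 were higher and 0 lower with DATS in SK-BR-3 (median 0.50). There 0 were lower at an unadjusted p under 0.05, by edgeR or by DESeq2. In MCF-10A 9 were lower and 0 higher (median -0.43), and 22 were lower with the block. Over all genes tested, 11.3% were higher in SK-BR-3 and 2.11% lower in MCF-10A without the block. With the block, 688 of all genes were lower in MCF-10A. CDC20, an activator of the anaphase-promoting complex, averaged 205 ± 12.6 FPKM with DATS and 93.4 ± 8.65 FPKM with DMSO in SK-BR-3 (1.13 ± 0.13, limma adjusted p = 0.000477). In MCF-10A it averaged 86.6 ± 16.4 FPKM with DATS and 136 ± 4.23 FPKM with DMSO. The difference between the lines' responses was positive and called for 23 of the 30 G2/M genes, beside 3 of the 40 replication genes and 2.48% of all genes tested. As single libraries were left out, the G2/M count ranged from 12 to 21 in SK-BR-3 and from 0 to 17 in MCF-10A. The 2 lists were not tested against each other.

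**Figure D5:**
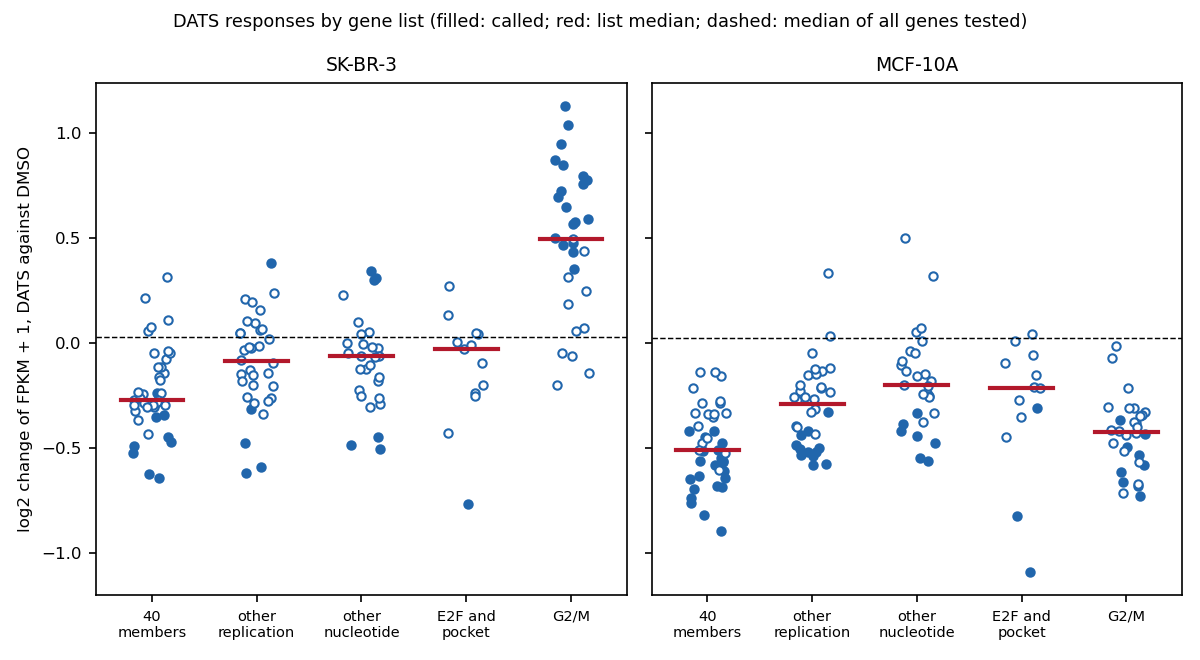
Log2 change of FPKM + 1 with DATS against DMSO (y axis) of the 40 genes, 34 further replication genes, 28 further nucleotide supply genes, 13 E2F and pocket protein genes and 30 G2/M genes (x axis) in SK-BR-3 (left) and MCF-10A (right). Filled points were called, red bars are list medians and the dashed line is the median of all genes tested. The G2/M median lies at 0.50 in SK-BR-3 and at -0.43 in MCF-10A, while the medians of the 40 genes are -0.27 and -0.51.

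The authors' deposited tables list genes at an unadjusted p under 0.05. The authors' deposited table for SK-BR-3 holds 4065 genes, among them 22 of the 40 members, all 22 lower and 10 of them at an adjusted p under 0.05. The authors' deposited table for MCF-10A holds 3477 genes, among them 37 members, all 37 lower and 32 at an adjusted p under 0.05. Lower genes among all those listed were not counted, so these member counts stand without a share over all genes.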

How the data were processed

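RNA of 12 libraries (4 groups of 3) was sequenced and, per the submitters' processing notes, handled with STAR 2.6.1d, DESeq2 and GRCh38. The deposited table of all genes holds FPKM. The authors' deposited comparison tables hold read counts, a signal that is the count divided by 1 size factor per library, log2 fold changes and p-values, for genes at an unadjusted p under 0.05. FPKM values were turned back into reads with the merged exon lengths of GENCODE 29: 704820 of 704820 values came out whole (tolerance 0.001 read), with depths of 15295046 to 18407213 reads.

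Genes that reached 1 FPKM in 3 or more libraries were fitted as log2(FPKM + 1) with limma 3.58.1 in R 4.3.3 (4 group means, trended empirical Bayes, Benjamini-Hochberg over 13194 genes, adjusted p under 0.05). A fold on this scale understates the change of low genes. Alternatives were edgeR 4.0.16 and DESeq2 1.42.0 on the recovered reads, a pseudocount of 0.1, no filter, quantile normalization, the replicate block, only the 2 groups compared, each library left out and, added after seeing the data, both MCF-10A libraries of preparation 3 left out. The fit was also run on simulated counts. These had the same relative spread for every gene and no differences between lines with DMSO or between preparations. That run cannot show how the fit handles such differences. Python 3.11.15 and matplotlib 3.10.9 made the descriptions and plots.

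Deviations from the group means of same-numbered DATS and DMSO libraries correlated at 0.394, 0.245 and 0.250 in SK-BR-3 and 0.210, 0.186 and 0.333 in MCF-10A. Those of different-numbered libraries correlated at -0.303 to 0.0870 in SK-BR-3 and at -0.240 to 0.114 in MCF-10A. The numbers were therefore taken to pair libraries within a line. In MCF-10A, numbers 1 and 2 were told apart least, with 0.114 and 0.0835 across them. The labels say that samples were prepared independently. The members and lists were chosen with earlier results of these data known. Values per library were printed by a rule: in each role class the 2 largest changes in each line, the largest response difference, the largest difference between DMSO groups, and members against their class's majority sign. Exon overlaps were taken with genes that reach 1 FPKM.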

Additional observations from a re-analysis of the deposited data

Results flagged for a closer look

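PRIM1, RRM1 and UHRF1 stood out because their DATS response differed between the lines in the test of the difference itself. The response in SK-BR-3 minus that in MCF-10A was 1.01 for PRIM1, 0.53 for RRM1 and 0.50 for UHRF1 on the log2(FPKM + 1) scale. The adjusted p of limma ranged from 0.00669 to 0.0782 for PRIM1, from 0.0274 to 0.125 for RRM1 and from 0.0236 to 0.0974 for UHRF1 as single libraries were left out. Any 1 of 7 libraries ended the call of PRIM1, any 1 of 9 that of RRM1 and any 1 of 8 that of UHRF1. Of the 3, edgeR called PRIM1 only and DESeq2 all 3.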

How the results depend on the processing

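Every called member kept its direction under every alternative run. In MCF-10A 22 members were called, 13 with no filter on low values, 0 with only the 2 groups compared and 35 with the replicate block, with a range of 6 to 27 as single libraries were left out. The fit of only the 2 MCF-10A groups called 0 of all genes. In SK-BR-3 9 were called, 15 by DESeq2, 16 by edgeR, 5 with no filter, 4 with only the 2 groups compared and 19 with the block (range 3 to 15). For the response difference 3 were called, 5 by DESeq2, 1 by edgeR, 0 with no filter (16 at an unadjusted p under 0.05, lowest adjusted p = 0.0618), 7 with the block and 6 without both MCF-10A libraries of preparation 3 (range 0 to 7). The SK-BR-3 median of -0.27 was -0.37 by edgeR, with a range of -0.34 to -0.19 as single libraries were left out. Between DMSO groups, where the numbers do not pair libraries (0.101, -0.206 and 0.0460), 32 were called and 34 with the block, and every other alternative stayed within 1.5 times. The cause of these shifts was not tested. No filter means 32604 genes tested, and 2 groups mean fewer libraries behind the spread. Libraries came from separate preparations of 1 line each, so p-values speak to libraries of these lines only. In the main fit they rest on the spread within groups, pooled over the 4 groups. For the DATS comparisons with the block, they rest on how differences between DATS and DMSO varied over the numbers.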

Other observations

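CDC6, the member that was highest in SK-BR-3 relative to MCF-10A with DMSO, lies on chromosome 17 (40287633 to 40304657, GRCh38), and its start is 557207 bases past the end of ERBB2 (39687914 to 39730426). Within 250000 bases on either side, a window chosen after the values were seen, 17 genes were tested, CDC6 included. Of these, 9 were higher in SK-BR-3 and 4 lower, against 36.6% and 35.5% of all genes tested. CDC6 is among the 9, and its high value set the window, so this count cannot test a rise of the region. With DMSO, RARA, a retinoic acid receptor, averaged 35.3 FPKM in SK-BR-3 and 2.87 FPKM in MCF-10A (n = 3 each). MSL1 averaged 87.3 and 13.3 FPKM, CASC3 67.5 and 13.1 FPKM, and MED24 77.0 and 15.8 FPKM in SK-BR-3 and MCF-10A. TNS4, further along, was lower in SK-BR-3, with 27.8 FPKM against 147 FPKM in MCF-10A. Copy number was not measured here.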
